A study of Homo sapiens with 32 samples.

Results

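The 10 genes described here encode the histone demethylase KDM1A and 9 proteins that purify with it in the CoREST corepressor complex or bind it: the scaffolds RCOR1, RCOR2 and RCOR3, the deacetylases HDAC1 and HDAC2, and PHF21A, HMG20B, ZMYM2 and ZNF217. They were picked by symbol and by no cut on their values, though with earlier results of these data known. All 10 of them were found among the 23073 genes with deposited FPKM values. FPKM counts fragments mapped to a gene, scaled for its length and for the size of the library. All 10 also passed the filter of at least 1 FPKM in at least 2 libraries, which kept 11890 genes, although RCOR2 reached 1 FPKM in 22 of 32 libraries only and KDM1A had a value in 17 of 32.

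RNA was sequenced from Kasumi-1 and SKNO-1, 2 human acute myeloid leukaemia lines that both carry the RUNX1-RUNX1T1 fusion gene. In each line, cultures were given 1 µM RN-1 (an irreversible KDM1A inhibitor), 1 µM GSK690 (a reversible one), 1 µM GSK690* (the isomer of GSK690 that the series design calls inactive) or 0.1% DMSO as vehicle, and were harvested at 24 or 72 h. Each of the 16 groups had 2 libraries labelled as biological replicates, and the p-values below measure the spread between such replicates. Each line is a single established line kept in its own medium (RPMI with 20% serum for Kasumi-1, and with 10% serum and 10 ng/mL GM-CSF for SKNO-1), so line and medium cannot be told apart. Below, RN-1 and GSK690 are called the inhibitors, GSK690* and DMSO the controls, and a line at 1 time a set (4 sets of 8 libraries).

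KDM1A removes methyl groups from mono- and dimethylated H3K4, a mark of active enhancers and promoters, with flavin as its cofactor. On nucleosomes it works with a CoREST scaffold, which ties it to HDAC1 or HDAC2, so that demethylation and deacetylation are coupled in gene repression. In myeloid cells, GFI1 and GFI1B bring this complex to their targets through a short N-terminal motif, and KDM1A inhibitors are studied in this leukaemia for the myeloid genes they release.

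Several facts of the whole series bear on the values below. The authors' own sample table named the opposite line for all 16 libraries at 72 h and for 0 at 24 h, and the sample titles were used. With lines taken from the titles, 72 h libraries correlated across genes with the 24 h libraries of their own line at a mean r of 0.974 to 0.986, and with those of the other line at 0.848 to 0.870. The later SKNO-1 libraries are 72 h by title and 4 days by protocol. Library names begin differently at 24 h and 72 h, so time and naming series cannot be told apart, and in SKNO-1 at 72 h the first DMSO and the first RN-1 library carry a CM prefix while the other 6 carry CP. The r between replicates was 0.986 to 0.996. Read counts were not used here, so depth is unknown.

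The defining markers of a myeloid blast were largely present. MPO, KIT, CD33, RUNX1T1, PTPRC and SPI1 were present in every library, while CD34 ran from 63.9 to 245 FPKM in Kasumi-1 and from 0.117 to 4.64 FPKM in SKNO-1. HBB was at 0 in all 32 libraries and CD3D at no more than 0.306 FPKM. EPCAM, an epithelial gene, ran from 61.0 to 83.5 FPKM in Kasumi-1 and reached no more than 0.219 FPKM in SKNO-1, with COL1A2 at 0 and KRT8 at no more than 0.197 FPKM. The summed level of the myeloid blast markers overlapped between inhibitor and control libraries in each of the 4 sets. In Kasumi-1 at 24 h, for example, it was 6552 to 7044 FPKM with the inhibitors and 5524 to 6660 FPKM in the controls. MPO made up most of this sum, with medians of 4001 FPKM in Kasumi-1 and 1790 FPKM in SKNO-1. The overlap therefore says little about the other markers. In bulk RNA, fewer cells of a type and less RNA per cell cannot be told apart.

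The start regions of 3 members are shown. KDM1A is the inhibitors' target. HDAC1 and ZNF217, which have a value in every library, stood apart between inhibitors and controls in all 4 sets, in opposite directions. The share of all genes that stood apart in this way was not computed, here or for the separations given below. Each window runs from 250 bases before to 50 bases after the start given by RefSeq on GRCh38.p14, written 5′ to 3′ on the gene's strand: chr1:23019218-23019517 (+) for KDM1A, chr1:32291833-32292132 (+) for HDAC1 and chr20:53593790-53594089 (−) for ZNF217. These starts were not matched to the hg19 gene positions used for FPKM, so a window may not lie at the start of the counted gene. Capitals mark the motif matches found on either strand.
KDM1A: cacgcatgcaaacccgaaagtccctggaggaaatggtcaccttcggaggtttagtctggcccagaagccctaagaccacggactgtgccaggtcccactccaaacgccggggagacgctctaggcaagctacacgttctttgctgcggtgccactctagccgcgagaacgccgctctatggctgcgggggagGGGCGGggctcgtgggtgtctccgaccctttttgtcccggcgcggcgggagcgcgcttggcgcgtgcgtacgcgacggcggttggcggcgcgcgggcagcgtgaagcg
HDAC1: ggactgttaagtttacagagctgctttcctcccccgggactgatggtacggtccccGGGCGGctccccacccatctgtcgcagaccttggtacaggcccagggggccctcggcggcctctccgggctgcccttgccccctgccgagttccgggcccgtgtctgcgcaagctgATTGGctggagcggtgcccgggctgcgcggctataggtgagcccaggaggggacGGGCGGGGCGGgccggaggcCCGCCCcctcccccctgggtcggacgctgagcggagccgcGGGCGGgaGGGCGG
ZNF217: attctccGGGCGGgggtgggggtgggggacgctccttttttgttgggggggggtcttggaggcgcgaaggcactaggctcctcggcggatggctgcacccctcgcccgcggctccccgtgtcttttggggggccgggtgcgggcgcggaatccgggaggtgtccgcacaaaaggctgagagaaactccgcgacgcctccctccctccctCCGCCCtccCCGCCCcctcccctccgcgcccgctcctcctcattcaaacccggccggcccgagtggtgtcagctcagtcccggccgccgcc

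The motifs searched on both strands were an ETS core (CCGGAAG), a RUNX core (TGTGGT), a GFI1 core (AAATC), the GC box (GGGCGG) and the CCAAT box (CCAAT). Among 27305 RefSeq windows of the same length, 10.7% held the ETS core, 13.1% the RUNX core, 33.2% the GFI1 core, 44.6% a GC box and 35.7% a CCAAT box. KDM1A's window held 1 GC box. HDAC1's held 6 GC boxes, of which a pair overlap, and 1 CCAAT box in reverse orientation. ZNF217's held 3 GC boxes. The ETS, RUNX and GFI1 letters were not in these 3 windows, which says nothing of binding by those factors. HDAC2, RCOR1 and HMG20B also have a single window each. HDAC2's held none of the 5 motifs. RCOR1's held 1 GFI1 core, 6 GC boxes and 1 CCAAT box, and HMG20B's held 6 GC boxes and 3 CCAAT boxes. The remaining members had no window or more than 1, and were not searched.

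FPKM is scaled for gene length, so levels can be set side by side between members, and their order was similar in both lines. In Kasumi-1 controls at 24 h the highest were HDAC2, at 124 ± 3.97 FPKM, and HDAC1, at 121 ± 6.08 FPKM (SD, n = 4 each), which did not differ beyond their spread. KDM1A followed at 69.7 FPKM in its 1 control library with a value, then HMG20B, an HMG-box DNA-binding subunit, at 45.4 ± 2.68 FPKM. ZMYM2 (20.9 ± 1.59 FPKM), RCOR3 (20.8 ± 0.867 FPKM) and PHF21A (20.2 ± 1.02 FPKM) lay within 1 SD of each other. RCOR1 stood at 16.4 ± 1.01 FPKM, the zinc finger protein ZNF217 at 10.4 ± 1.20 FPKM and RCOR2 last at 0.706 ± 0.113 FPKM. HDAC2 and HDAC1 lay above 96.2% and 96.1% of the kept genes in these controls, and RCOR2 above 8.10%.

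In SKNO-1 controls at 24 h HDAC2 was at 96.5 ± 3.94 FPKM and HDAC1 lower, at 76.0 ± 3.48 FPKM, with no overlap between their libraries. KDM1A stood at 69.4 ± 0.970 FPKM (SD, n = 2), and ZMYM2 (29.7 ± 0.785 FPKM) and HMG20B (27.6 ± 3.49 FPKM) did not differ beyond their spread. RCOR3 (22.0 ± 1.58 FPKM) and RCOR1 (21.3 ± 1.15 FPKM) did not either. PHF21A (14.2 ± 0.342 FPKM), ZNF217 (8.28 ± 0.628 FPKM) and RCOR2 (1.81 ± 0.206 FPKM) closed the order.

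**Figure D1:**
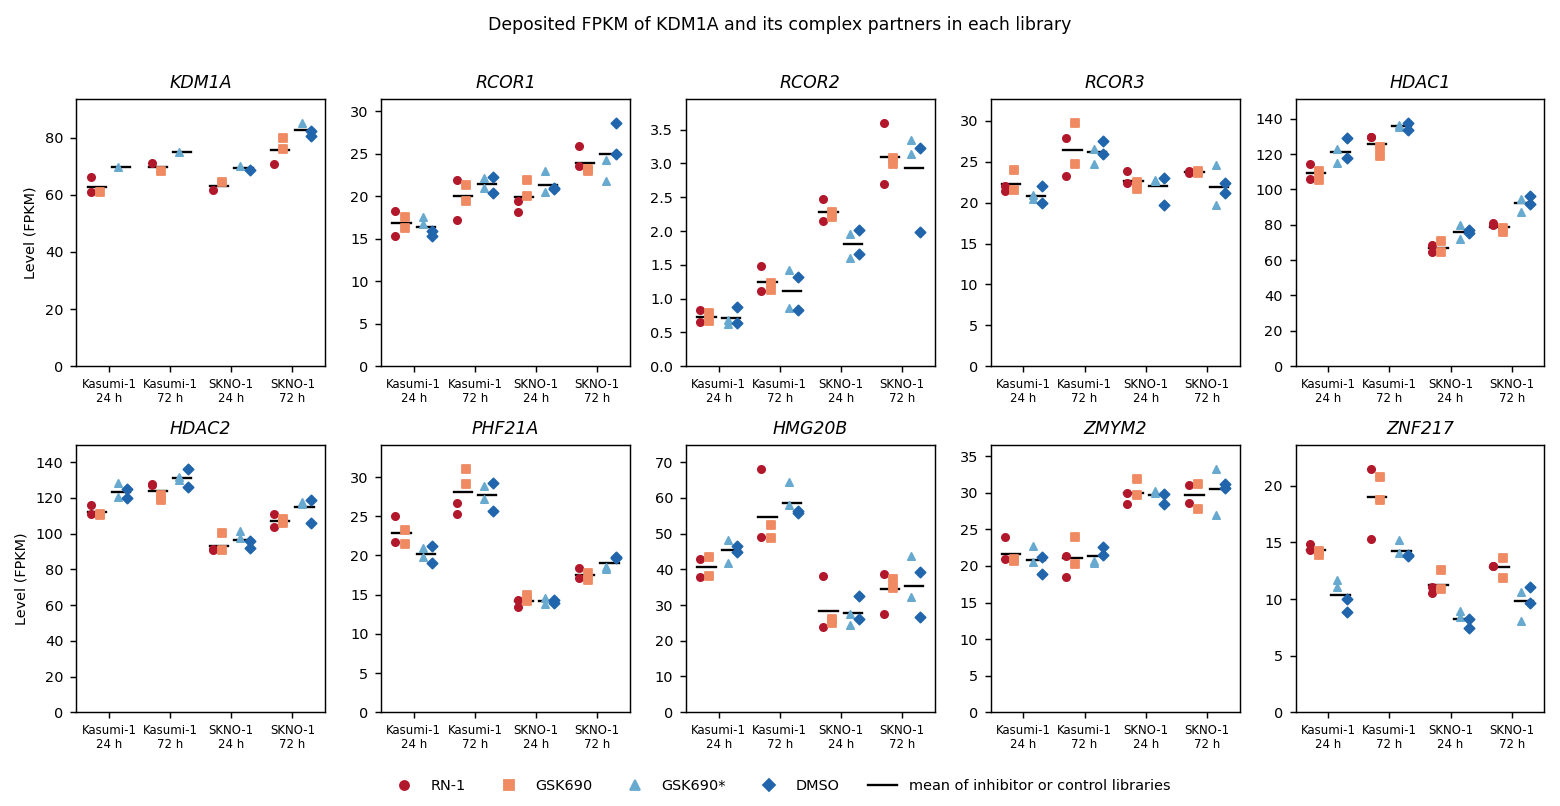
Deposited FPKM (y axis, from 0) of each of the 10 genes in every library with a value, by line and time on the x axis. Points are single libraries of RN-1, GSK690, GSK690* and DMSO, and horizontal bars are the means of the inhibitor and of the control libraries. In ZNF217 the inhibitor points lie above the control points and in HDAC1 below them in all 4 sets, while KDM1A lacks points in 15 libraries.

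Replicates of the deacetylases were among the tightest of all genes. On the log2(FPKM + 1) scale the SD within groups was 0.05 for HDAC2 and 0.06 for HDAC1, against a median of 0.14 over the tested genes, and 0.496% and 1.27% of genes had a smaller one. HMG20B was the loosest member, with an SD of 0.23 that 88.9% of genes stayed below. HMG20B overlaps MFSD12 in the authors' annotation (chr19:3572774-3579086 on hg19), which reached 37.0 FPKM, and since the use of strand in counting is not stated, reads of the pair cannot be told apart.

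For the drug target itself every inhibitor value lay below the control values of its set, though the values are few and no single set passed the test. KDM1A (ENSG00000004487, chr1:23345940-23410182 on hg19) had no value in 6 of 16 inhibitor libraries and 9 of 16 control libraries, treated as missing, and none in any Kasumi-1 DMSO library. In Kasumi-1 at 24 h it stood at 66.2 and 60.9 FPKM with RN-1 and 61.1 FPKM with GSK690, against 69.7 FPKM with GSK690*. The 72 h values were 71.3 FPKM with RN-1 and 68.3 FPKM with GSK690, against 75.1 FPKM with GSK690*. Both sets have the inhibitor values below the single control value.

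In SKNO-1 at 24 h KDM1A was at 61.8 FPKM with RN-1 and 64.5 FPKM with GSK690, against 70.1 FPKM with GSK690* and 68.7 FPKM with DMSO. At 72 h it was at 70.8 FPKM with RN-1 and 79.8 and 76.1 FPKM with GSK690, against 85.1 FPKM with GSK690* and 82.2 and 80.4 FPKM with DMSO. Inhibitor and control values did not overlap in either set. The log2 difference was -0.13 (SE 0.092, adjusted p = 0.436) at 24 h and -0.16 (SE 0.080, adjusted p = 0.245) at 72 h by limma, neither of which passed. Quantile normalization brought them to -0.02 and -0.06.

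A fit with inhibitors and controls as 1 group each per set also gave KDM1A a difference in Kasumi-1, of -0.15 at 24 h (adjusted p = 0.257) and -0.11 at 72 h (adjusted p = 0.453) by limma. KDM1A's mean over the 4 sets was -0.13 (SE 0.042, adjusted p = 0.0167 by limma), from 10 inhibitor and 7 control values. In Kasumi-1 its control values came from GSK690* libraries only. This fit called 6387 of the 11890 kept genes in the mean, and it was not run with other scaling. GSK690 minus GSK690* had a value in every set, and its mean over them was -0.14 (95% interval -0.29 to 0.00, adjusted p = 0.129), which did not pass.

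ZNF217 was the one member that rose with the inhibitors. It encodes a Krüppel-like zinc finger protein that is known from amplification of its gene in breast cancer and from complexes with KDM1A, CoREST and CtBP (ENSG00000171940, chr20:52183603-52226446 on hg19). In Kasumi-1 at 24 h its level was 14.4 and 14.9 FPKM with RN-1 and 14.3 and 13.9 FPKM with GSK690, against 11.0 and 11.7 FPKM with GSK690* and 10.0 and 8.90 FPKM with DMSO. By 72 h ZNF217 was at 15.3 and 21.5 FPKM with RN-1 and 18.7 and 20.8 FPKM with GSK690, against 14.05 and 15.2 FPKM with GSK690* and 13.8 and 13.9 FPKM with DMSO. All inhibitor libraries lay above all controls in both sets, by a narrow margin at 72 h, where 1 RN-1 library sat just above the highest GSK690* library.

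In SKNO-1 at 24 h ZNF217 was at 10.6 and 11.0 FPKM with RN-1 and 12.6 and 10.9 FPKM with GSK690, against 8.96 and 8.45 FPKM with GSK690* and 7.45 and 8.24 FPKM with DMSO. At 72 h it was at 12.9 FPKM in both RN-1 libraries and 11.8 and 13.7 FPKM with GSK690, against 8.04 and 10.6 FPKM with GSK690* and 9.66 and 11.0 FPKM with DMSO. Here too the groups did not overlap. The controls spread over 3 FPKM at 72 h.

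By limma ZNF217 was higher with the inhibitors by 0.44 in Kasumi-1 at 24 h (SE 0.092, adjusted p = 0.00208), 0.39 at 72 h (adjusted p = 0.00378), 0.40 in SKNO-1 at 24 h (adjusted p = 0.00813) and 0.36 at 72 h (adjusted p = 0.0130), all on the log2(FPKM + 1) scale. The mean over the 4 sets was 0.40 (SE 0.046, adjusted p = 5.782e-07), a 1.32-fold level. The SKNO-1 call at 24 h was lost without the first GSK690 library (adjusted p = 0.0660) and in a fit of that set alone (adjusted p = 0.0679). At 72 h it was lost without the first DMSO (adjusted p = 0.0685), the first GSK690* (adjusted p = 0.0935) or the second GSK690 library (adjusted p = 0.0668), with GSK690* left out of the controls (adjusted p = 0.126) and in a fit of that set alone (adjusted p = 0.160). A term for the library name prefix left the 72 h value at 0.36 (adjusted p = 0.0122).

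HDAC1 moved the other way. HDAC1 (ENSG00000116478, chr1:32757686-32799236 on hg19) is a class I deacetylase shared by the CoREST, NuRD, SIN3 and MiDAC complexes. In Kasumi-1 at 24 h its level was 115 and 106 FPKM with RN-1 and 110.3 and 106 FPKM with GSK690, against 123 and 115 FPKM with GSK690* and 129 and 118 FPKM with DMSO. By 72 h HDAC1 was at 129.8 and 129.7 FPKM with RN-1 and 124 and 119 FPKM with GSK690, against 135 and 137 FPKM with GSK690* and 138 and 134 FPKM with DMSO. The groups stood apart in both sets, by less than 1 FPKM at 24 h.

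SKNO-1 cultures at 24 h had HDAC1 at 68.3 and 64.4 FPKM with RN-1 and 64.5 and 71.0 FPKM with GSK690, against 80.1 and 71.7 FPKM with GSK690* and 75.6 and 76.9 FPKM with DMSO. At 72 h it was at 81.0 and 80.1 FPKM with RN-1 and 76.1 and 78.5 FPKM with GSK690, against 94.3 and 87.0 FPKM with GSK690* and 96.6 and 92.0 FPKM with DMSO. All inhibitor libraries again lay below all controls, and the gap was widest at 72 h.

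By limma HDAC1 fell by 0.15 with the inhibitors in Kasumi-1 at 24 h (SE 0.053, adjusted p = 0.0477), fell by 0.18 in SKNO-1 at 24 h (adjusted p = 0.0357) and fell by 0.23 in SKNO-1 at 72 h (adjusted p = 0.00667). In Kasumi-1 at 72 h the difference of -0.11 did not pass (adjusted p = 0.116). The mean over the 4 sets was -0.17 (SE 0.026, adjusted p = 2.499e-05), a 0.891-fold level. The Kasumi-1 call at 24 h was lost with quantile normalization (-0.05, adjusted p = 0.450), with scaling by the median of ratios (-0.11, adjusted p = 0.0961), in a fit of that set alone (adjusted p = 0.0632), with GSK690* left out of the controls (adjusted p = 0.0666), and without the first DMSO, the first GSK690*, the second RN-1 or either GSK690 library (adjusted p of 0.0677 to 0.205). The SKNO-1 call at 24 h was lost without any single library but the second GSK690* or the second GSK690 one (adjusted p of 0.0674 to 0.207), in a fit of that set alone (adjusted p = 0.157) and with GSK690* left out of the controls (adjusted p = 0.101), and the 72 h call in a fit of that set alone (adjusted p = 0.105). The prefix term left the SKNO-1 difference at 72 h at -0.23 (adjusted p = 0.00613).

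HDAC2, the close homologue of HDAC1 (chr6:114254191-114332472 on hg19), fell in 1 of the 4 sets. In Kasumi-1 at 24 h it was at 116 and 111 FPKM with RN-1 and 110.1 and 111 FPKM with GSK690, against 128 and 121 FPKM with GSK690* and 125 and 120.1 FPKM with DMSO, with no overlap. In the other sets the ranges overlapped, for example 90.7 to 100.2 FPKM with the inhibitors and 91.7 to 101 FPKM in the controls of SKNO-1 at 24 h.

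By limma HDAC2 fell by 0.14 in Kasumi-1 at 24 h (SE 0.050, adjusted p = 0.0471). The differences of -0.08 in Kasumi-1 at 72 h (adjusted p = 0.259), -0.05 in SKNO-1 at 24 h (adjusted p = 0.609) and -0.10 in SKNO-1 at 72 h (adjusted p = 0.222) did not pass, and the mean over the 4 sets was -0.09 (adjusted p = 0.00444). The Kasumi-1 call at 24 h held without the second GSK690* library but not without any other 1 of the 8 (adjusted p of 0.0621 to 0.175), nor with quantile normalization (-0.05, adjusted p = 0.534), the median of ratios (-0.11, adjusted p = 0.119) or GSK690* left out of the controls (-0.13, adjusted p = 0.149). The mean over the 4 sets was not called with quantile normalization (-0.03, adjusted p = 0.298) or with GSK690* left out (-0.07, adjusted p = 0.0638). Quantile normalization also turned the SKNO-1 value at 24 h to 0.00.

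The balance of the 2 deacetylases was as follows. The ratio of HDAC1 to HDAC2 was 0.975 ± 0.024 with the inhibitors and 0.981 ± 0.035 in the controls of Kasumi-1 at 24 h, and 1.01 ± 0.0095 and 1.04 ± 0.020 at 72 h (SD, n = 4 each). In SKNO-1 it was 0.719 ± 0.018 with the inhibitors and 0.789 ± 0.042 in the controls at 24 h, and 0.736 ± 0.023 and 0.807 ± 0.054 at 72 h. No test was run on the ratio, and inhibitor and control ranges overlapped in each set.

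The scaffolds did not pass in any set or in the mean over the 4 sets. RCOR1 (chr14:103058997-103196913), the main CoREST protein, averaged 16.9 ± 1.32 FPKM with the inhibitors and 16.4 ± 1.01 FPKM in the controls of Kasumi-1 at 24 h (SD, n = 4 each), and its mean difference over the 4 sets was -0.05 (95% interval -0.13 to 0.03, adjusted p = 0.261 by limma). RCOR3 (chr1:211431718-211489727), a paralogue reported in mouse blood progenitors to oppose RCOR1, had a mean difference of 0.06 (95% interval -0.02 to 0.14, adjusted p = 0.182). Their inhibitor and control ranges overlapped in every set.

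RCOR2 (chr11:63678692-63684316), a scaffold best known in stem and neural cells, was near the floor of the measurement. In SKNO-1 at 24 h it stood at 2.48 and 2.15 FPKM with RN-1 and 2.21 and 2.27 FPKM with GSK690, against 1.95 and 1.61 FPKM with GSK690* and 2.02 and 1.66 FPKM with DMSO. These groups did not overlap, yet the difference of 0.22 did not pass (95% interval -0.01 to 0.46, adjusted p = 0.230 by limma). In the other 3 sets the groups overlapped. Its mean over the 4 sets was 0.10 (adjusted p = 0.135), which turned to -0.02 with quantile normalization (adjusted p = 0.686) and was called without the second SKNO-1 DMSO library of 72 h (0.13, adjusted p = 0.0364). RCOR2 made up 5.09% ± 0.452 of the summed scaffold FPKM with the inhibitors and 4.01% ± 0.526 in the controls of SKNO-1 at 24 h, and 1.85% ± 0.252 and 1.86% ± 0.262 in Kasumi-1 at 24 h.

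PHF21A (chr11:45950870-46142985), the BHC80 subunit that reads unmethylated H3K4, showed a difference in Kasumi-1 at 24 h only just short of the threshold. It stood at 25.1 and 21.7 FPKM with RN-1 and 23.2 and 21.4 FPKM with GSK690, against 19.8 and 20.9 FPKM with GSK690* and 19.0 and 21.2 FPKM with DMSO. The groups did not overlap, the highest control being just under the lowest inhibitor library. The difference was 0.17 (95% interval 0.04 to 0.29, adjusted p = 0.0593 by limma), and it passed with quantile normalization (0.21, adjusted p = 0.0201), the median of ratios (0.20, adjusted p = 0.0242), no filter on low values (adjusted p = 0.0398), inhibitors and controls as 1 group each (adjusted p = 0.0455), and without the second DMSO library (adjusted p = 0.0450) or the second RN-1 library (adjusted p = 0.0350). At 72 h in the same line it was 0.01, and in SKNO-1 0.00 at 24 h and -0.11 at 72 h.

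HMG20B and ZMYM2 (chr13:20532809-20665968), a MYM-type zinc finger protein of the complex, overlapped between inhibitors and controls in every set. HMG20B averaged 40.5 ± 3.08 FPKM with the inhibitors and 45.4 ± 2.68 FPKM in the controls of Kasumi-1 at 24 h (SD, n = 4 each), and its mean difference over the 4 sets was -0.07 (95% interval -0.22 to 0.08, adjusted p = 0.444 by limma). ZMYM2's was 0.00 (95% interval -0.07 to 0.08, adjusted p = 0.965).

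**Figure D2:**
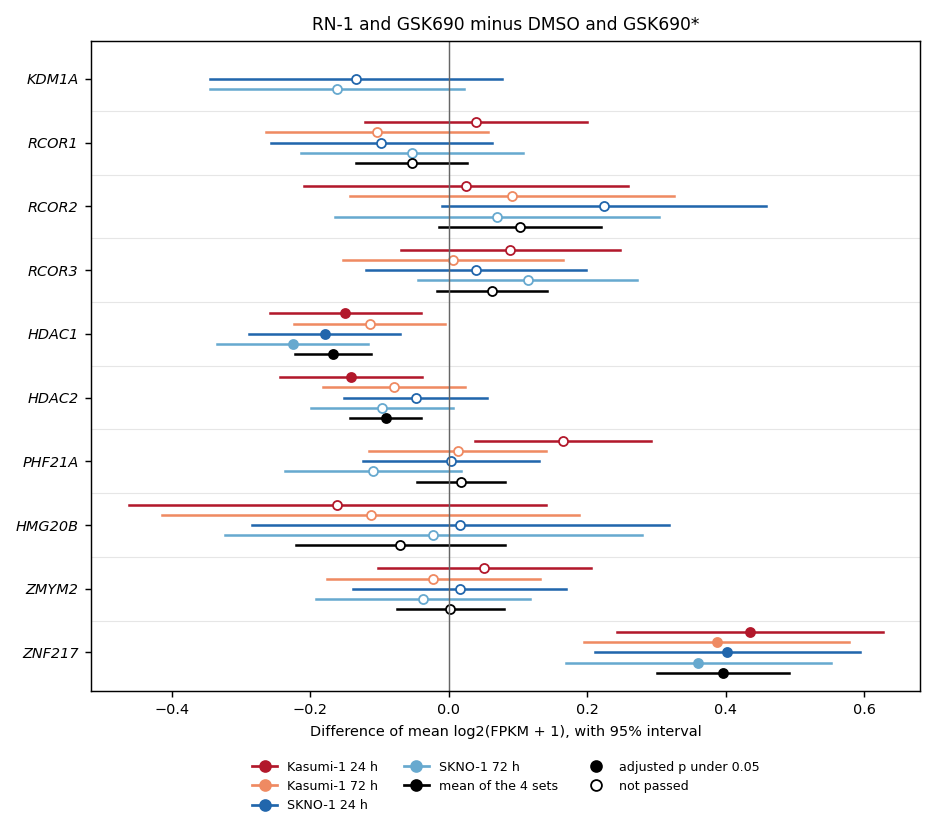
Difference between the inhibitors (RN-1 and GSK690) and the controls (GSK690* and DMSO) for each gene, as the difference of mean log2(FPKM + 1) on the x axis, with 95% intervals as bars, in the 4 sets and their mean. Filled points passed an adjusted p of 0.05 by limma. ZNF217 lies between 0.36 and 0.44 in the 4 sets and HDAC1 between -0.11 and -0.23, while the intervals of the other members mostly span 0; KDM1A could be fitted in SKNO-1 only.

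Counting calls by limma, 1 member (ZNF217) was called higher and 2 (HDAC1 and HDAC2) lower in Kasumi-1 at 24 h, where 9.69% of all tested genes were called higher and 11.2% lower. In Kasumi-1 at 72 h 1 member was higher and 0 lower, with 13.0% and 12.7% of all genes. The 2 members with an unadjusted p under 0.05 by limma there were ZNF217, which was called, and HDAC1, which was lower and not called. In SKNO-1 the counts were 1 higher and 1 lower at each time, with 5.64% higher and 3.44% lower of all genes at 24 h and 6.91% and 4.16% at 72 h. In the mean over the 4 sets 1 member was higher and 2 were lower, with 22.7% and 28.1% of all genes. With 9 or 10 members fitted, most of these counts are near the shares over all genes. After rescaling by the median of ratios the split of calls over all genes differed, with 58.4% of them higher in Kasumi-1 at 24 h against 46.5% as deposited, and 75.2% against 62.1% in SKNO-1 at 24 h. Leaving out 1 library gave 1498 to 2095 called genes in Kasumi-1 at 24 h (2479 with all libraries), 2022 to 2852 at 72 h (3052), 387 to 1451 in SKNO-1 at 24 h (1080) and 860 to 1602 at 72 h (1316), so the shares over all genes are themselves uncertain. The lowest of these counts came without the second GSK690 library of Kasumi-1 at 24 h, its first DMSO library at 72 h, the first GSK690 library of SKNO-1 at 24 h (where 83.5% of calls were then higher) and its first DMSO library at 72 h. The median member difference lay between -0.04 and 0.04 in the 4 sets, and that of all genes between -0.02 and -0.01.

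The compounds can be compared at the same dose and time, with RN-1 against DMSO and GSK690 against its inactive isomer resting on separate libraries. In single sets, with 2 libraries against 2, ZNF217 passed for RN-1 minus DMSO in Kasumi-1 at 24 h, at 0.58 (SE 0.130, adjusted p = 0.00772 by limma), and was not called without the second DMSO (adjusted p = 0.0800) or the second RN-1 library (adjusted p = 0.0737). That is 1 member, where 9.08% of all genes were called. For RN-1 minus DMSO 0 members passed in Kasumi-1 at 72 h (12.1% of all genes), SKNO-1 at 24 h (2.25%) and SKNO-1 at 72 h (3.47%), with 1, 2 and 2 members at an unadjusted p under 0.05. For GSK690 minus GSK690* 0 members passed at 24 h (3.94%) or 72 h (9.75%) in Kasumi-1 or at 24 h (1.63%) or 72 h (2.83%) in SKNO-1, with 2 members at an unadjusted p under 0.05 in each set. These fits had no block for the replicate number. With such a block 1 member passed for RN-1 minus DMSO in each of the 3 sets with 0, and for GSK690 minus GSK690* 1 in Kasumi-1 at 72 h, 1 in SKNO-1 at 24 h and 2 at 72 h.

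ZNF217 nevertheless had a positive difference in every set for each pair. For RN-1 minus DMSO the 24 h and 72 h values were 0.58 and 0.37 in Kasumi-1, with 0.42 and 0.30 in SKNO-1. For GSK690 minus GSK690* it was 0.29 and 0.41 in Kasumi-1 and 0.39 and 0.42 in SKNO-1. HDAC1 was negative in every set for both pairs, from -0.06 to -0.22 for RN-1 and from -0.14 to -0.23 for GSK690.

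Averaged over the 4 sets, a summary chosen after seeing the data, each inhibitor gave the same pair of changes. For RN-1 minus DMSO ZNF217 was higher by 0.42 (95% interval 0.28 to 0.55, adjusted p = 6.061e-05 by limma) and HDAC1 fell by 0.16 (95% interval -0.24 to -0.08, adjusted p = 0.00221), while HDAC2 at -0.06 did not pass (adjusted p = 0.172). For GSK690 minus GSK690* ZNF217 was higher by 0.38 (95% interval 0.24 to 0.51, adjusted p = 0.000213), HDAC1 fell by 0.17 (95% interval -0.25 to -0.10, adjusted p = 0.00160) and HDAC2 fell by 0.12 (95% interval -0.19 to -0.05, adjusted p = 0.0141). With quantile normalization the last of these was -0.06 and not called (adjusted p = 0.218), and HDAC1 was -0.11 and still called (adjusted p = 0.00753). These are 2 and 3 members, where 34.7% and 29.7% of all genes were called.

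**Figure D3:**
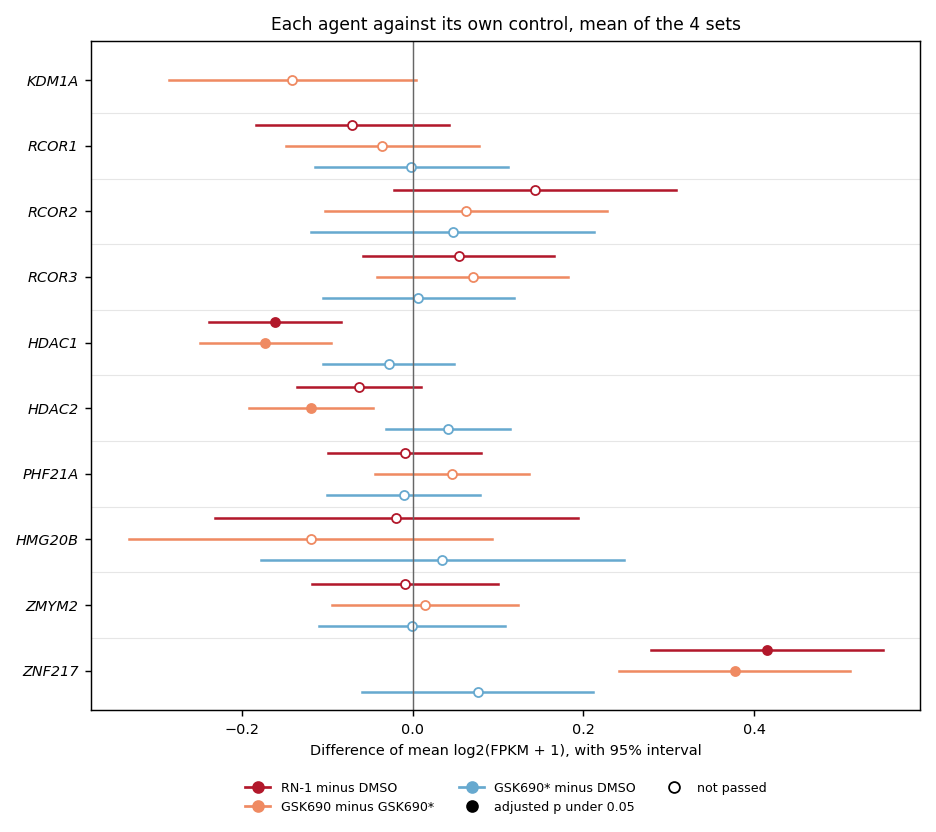
Mean over the 4 sets of each agent against its own control, as the difference of mean log2(FPKM + 1) on the x axis with 95% intervals, for RN-1 minus DMSO, GSK690 minus GSK690* and GSK690* minus DMSO. Filled points passed an adjusted p of 0.05 by limma. RN-1 and GSK690 both lie near 0.4 for ZNF217 and near -0.17 for HDAC1, and GSK690* has its intervals across 0 for all 9 members with a value; KDM1A has a value for GSK690 minus GSK690* only.

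The inactive isomer itself was set against the vehicle. For GSK690* minus DMSO 0 members and 0 genes (0% of all) passed in each of the 4 sets by limma, with 0 members and 305 and 111 genes at an unadjusted p under 0.05 in Kasumi-1 at 24 and 72 h, against 218 and 268 genes in SKNO-1. In Kasumi-1 at 24 h ZNF217 was at 11.0 and 11.7 FPKM with GSK690* and 10.0 and 8.90 FPKM with DMSO, a difference of 0.24 (95% interval -0.03 to 0.51). In the mean over the sets ZNF217 differed by 0.08 (95% interval -0.06 to 0.21) and HDAC1 by -0.03 (95% interval -0.11 to 0.05). There 0 members passed, and 0.0589% of all genes did.

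RN-1 and GSK690, which bind the enzyme irreversibly and reversibly, did not differ at the threshold in any member. The share of all genes called was 0% in Kasumi-1 at 24 h, 0.00841% at 72 h and 0% in SKNO-1 at either time, with 86, 839, 613 and 120 genes at an unadjusted p under 0.05 by limma. PHF21A in Kasumi-1 at 72 h was the 1 member at an unadjusted p under 0.05, at 25.3 and 26.7 FPKM with RN-1 and 29.2 and 31.0 FPKM with GSK690 (-0.20, 95% interval -0.38 to -0.02, adjusted p = 0.676). In the mean over the sets (0.0168% of all genes called) ZNF217 differed by -0.04 (95% interval -0.17 to 0.10) and HDAC1 by 0.04 (95% interval -0.04 to 0.12). Such intervals leave room for differences of that size in either direction.

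The response of the members was not shown to differ by time or by line. For 72 h minus 24 h 0 members passed in Kasumi-1, where 0.202% of all genes did, and 0 in SKNO-1, where 0% of genes did and 153 had an unadjusted p under 0.05 by limma. For Kasumi-1 minus SKNO-1 0 members passed at 24 h (1.12% of all genes) and at 72 h (3.47%), and 0 members had an unadjusted p under 0.05 in any of the 4 tests. ZNF217 differed by 0.03 between the lines at 24 h (95% interval -0.24 to 0.30) and by 0.03 at 72 h (95% interval -0.24 to 0.30), and HDAC1 by 0.03 (95% interval -0.12 to 0.18) and 0.11 (95% interval -0.04 to 0.27).

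The members were also compared between the lines. In the controls, Kasumi-1 was set against SKNO-1, and 5 members were higher and 3 lower at 24 h, where 69.1% of all tested genes were called in either direction. At 72 h 6 were higher and 3 lower, with 70.8% of all genes called. The members' counts are thus in a comparison where most genes pass. KDM1A could not be fitted, since no Kasumi-1 DMSO library has a value. Its control values were 69.7 and 75.1 FPKM in Kasumi-1 and ran from 68.7 to 85.1 FPKM in 5 SKNO-1 libraries, and the ranges overlap.

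The deacetylases were higher in Kasumi-1. HDAC1 averaged 121 ± 6.08 FPKM in Kasumi-1 and 76.0 ± 3.48 FPKM in SKNO-1 controls at 24 h (SD, n = 4 each), a 1.59-fold level (0.66, SE 0.053, adjusted p = 2.123e-10 by limma), and 1.46-fold at 72 h. HDAC2 was higher by 0.35 at 24 h (adjusted p = 1.617e-06) and by 0.19 at 72 h (adjusted p = 0.00180). PHF21A was higher by 0.48 and 0.52, HMG20B by 0.70 and 0.73 and ZNF217 by 0.29 and 0.50 at 24 and 72 h. RCOR3 was -0.07 and not called at 24 h (adjusted p = 0.396) and 0.25 at 72 h (adjusted p = 0.00641). The 72 h call was lost without the first SKNO-1 GSK690* library (0.17, adjusted p = 0.0592).

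The other scaffolds and ZMYM2 were lower in Kasumi-1. RCOR2 averaged 0.706 ± 0.113 FPKM in Kasumi-1 and 1.81 ± 0.206 FPKM in SKNO-1 controls at 24 h. The difference was -0.72 there and -0.89 at 72 h (adjusted p = 7.396e-06 and 3.579e-07 by limma). With a pseudocount of 0.1 in place of 1 the 24 h value was -1.25, since the larger pseudocount shrinks differences of low genes. ZMYM2 was at -0.49 and -0.50 (adjusted p = 4.593e-06 and 3.828e-06). RCOR1 was at -0.36 at 24 h (adjusted p = 0.000271) and -0.20 at 72 h (adjusted p = 0.0239). Its 72 h call was lost with quantile normalization (adjusted p = 0.0637), the median of ratios (adjusted p = 0.0967) and the prefix term (adjusted p = 0.0711), and without the second Kasumi-1 DMSO, the second Kasumi-1 GSK690*, the first SKNO-1 DMSO or the second SKNO-1 GSK690* library (adjusted p of 0.0736 to 0.114).

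**Figure D4:**
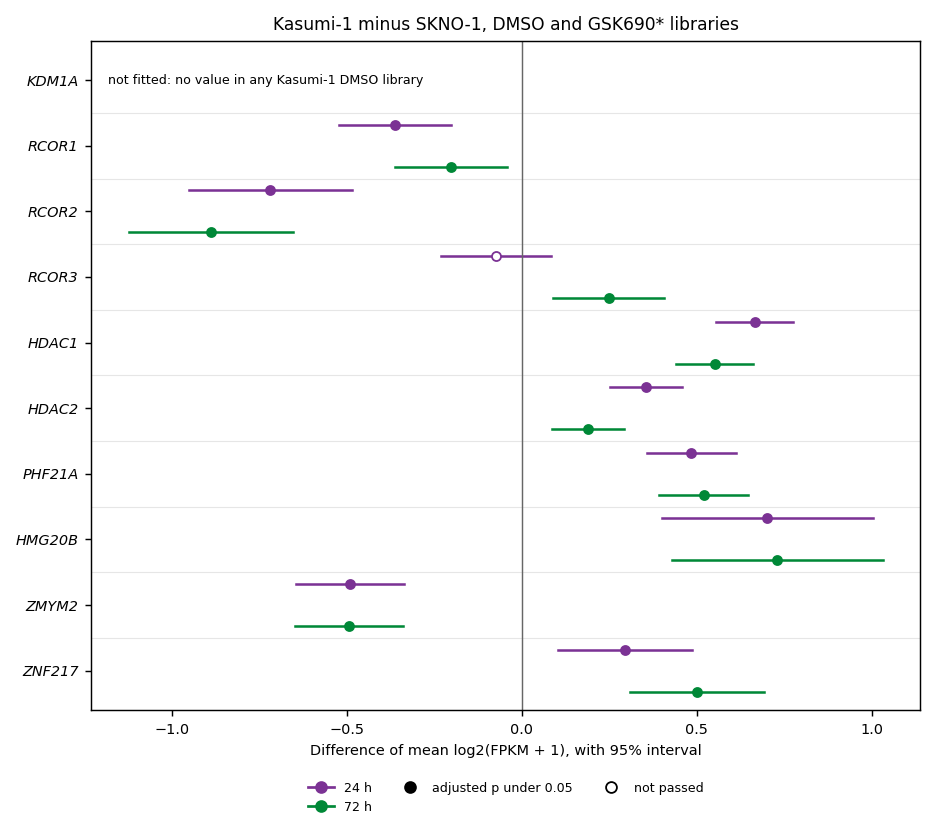
Kasumi-1 minus SKNO-1 in the control libraries (GSK690* and DMSO), as the difference of mean log2(FPKM + 1) on the x axis with 95% intervals, at 24 and 72 h. Filled points passed an adjusted p of 0.05 by limma. HDAC1, HDAC2, PHF21A, HMG20B and ZNF217 lie right of 0 at both times and RCOR1, RCOR2 and ZMYM2 left of it.

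Across the libraries some members moved together. After the mean of each set was taken off, log2(FPKM + 1) of HDAC1 and HDAC2 had a Pearson r of 0.750 over 32 libraries, HDAC1 and ZNF217 one of -0.780, and KDM1A and HDAC2 one of 0.835 over 17 libraries. These libraries share their treatments and their scaling, so the values are descriptive. The 2 genes most like each member by this measure were FAM8A1 (r = 0.951) and MEGF9 (0.943) for ZNF217, LRRC59 (0.921) and ATP5G3 (0.909) for HDAC1, PDCD10 (0.879) and PTGES3 (0.876) for HDAC2, and PRIM2 (0.949) and ERLEC1 (0.936) for KDM1A over its 17 libraries. RHOT2 (0.930) and JUND (0.910) were nearest to HMG20B, MIER1 (0.828) and CMPK1 (0.808) to RCOR1, CCS (0.837) and CCDC130 (0.800) to RCOR2, and CPEB4 (0.845) and TNKS2 (0.768) to ZMYM2. The weakest likenesses were those of RCOR3, with WDFY2 (0.743) and RNF19A (0.728), and of PHF21A, with PFKFB2 (0.671) and RAB11FIP1 (0.665).

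Other partners and recruiters of KDM1A were called in both directions. Of 21 such genes 19 were tested, and with the inhibitors 2 were called higher and 1 lower in Kasumi-1 at 24 h, 1 and 2 at 72 h, 2 and 2 in SKNO-1 at 24 h and 2 and 0 at 72 h, where 5 had an unadjusted p under 0.05 by limma. Over all genes 9.69% were higher and 11.2% lower in Kasumi-1 at 24 h, 13.0% and 12.7% at 72 h, 5.64% and 3.44% in SKNO-1 at 24 h and 6.91% and 4.16% at 72 h, and the Kasumi-1 counts of these partners are near or below those shares. Averaged over the sets 4 were higher and 5 lower, where 22.7% and 28.1% of all genes were. That mean had 5 higher and 4 lower with quantile normalization, and 4 and 3 with the median of ratios. With the median of ratios the lower counts were 0 in Kasumi-1 at 24 h and 1 in SKNO-1 at 24 h, and with quantile normalization they were 2 in Kasumi-1 at 24 h and 3 at 72 h. GFI1, the DNA-binding repressor that recruits KDM1A, averaged 181 ± 7.58 FPKM with the inhibitors and 125 ± 9.58 FPKM in the controls of Kasumi-1 at 24 h, and its mean difference over the 4 sets was 0.53 (adjusted p = 3.802e-11 by limma). GFI1B, its paralogue, was higher by 2.59 in SKNO-1 at 24 h (adjusted p = 0.000664) and by 3.82 at 72 h (adjusted p = 3.597e-06) by limma. At 24 h it averaged 9.43 ± 8.89 FPKM with the inhibitors, a wide spread, and 0.187 ± 0.291 FPKM in the controls. At 72 h the means were 14.9 ± 5.11 and 0.0917 ± 0.108 FPKM. In Kasumi-1 GFI1B averaged only 0.0794 FPKM at 24 h and 0.203 FPKM at 72 h with the inhibitors. The difference between the lines was not tested here. ZEB2, a repressor of epithelial genes, averaged 42.1 ± 8.87 FPKM with the inhibitors and 57.4 ± 1.76 FPKM in the controls of Kasumi-1 at 72 h (-0.46, adjusted p = 0.00180). Its SKNO-1 call at 24 h (-0.34, adjusted p = 0.0387) was lost with quantile normalization (adjusted p = 0.114) and with the median of ratios (adjusted p = 0.0738). The zinc finger protein RREB1 was at -0.35 in Kasumi-1 at 72 h (adjusted p = 0.000697), and its call at 24 h (-0.21, adjusted p = 0.0349) was lost with the median of ratios (adjusted p = 0.0789).

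HDAC1 and HDAC2 also serve NuRD, a remodelling and deacetylase complex, and of its 12 other subunits 0 were higher and 3 lower in Kasumi-1 at 24 h and 2 higher and 2 lower at 72 h, with 0 called in SKNO-1 at either time by limma. The shares over all genes were 9.69% higher and 11.2% lower in Kasumi-1 at 24 h and 13.0% and 12.7% at 72 h, so the 2 and 2 of 12 at 72 h are near them. At an unadjusted p under 0.05 there were 5, 6, 2 and 2 in the 4 sets. In the mean over the 4 sets 2 were higher and 6 lower, with 22.7% and 28.1% of all genes. That mean had 2 higher and 3 lower with quantile normalization, and 2 and 5 with the median of ratios. With either rescaling 1 was higher and 2 were lower in Kasumi-1 at 24 h, and with the median of ratios 1 was higher in SKNO-1 at 24 h. Its scaffold MTA2 averaged 52.2 ± 0.993 FPKM with the inhibitors and 62.9 ± 3.23 FPKM in the controls of Kasumi-1 at 24 h (-0.26, adjusted p = 0.00182 by limma), and CDK2AP1 was at -0.34 (adjusted p = 0.000970). At 72 h in Kasumi-1 the paralogue MTA3 was at 0.46 (adjusted p = 0.00671) and the remodeller CHD3 at 0.31 (adjusted p = 0.00927). The median NuRD difference in Kasumi-1 at 24 h was -0.10, and that of all genes -0.01. With quantile normalization these were -0.031 and -0.021, and with the median of ratios -0.065 and 0.012.

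Among the subunits of the H3K4 methyltransferases, which write the mark that KDM1A removes, calls were all in the lower direction in these 4 sets. Of 17 genes 0 were higher in any set, and 5 were lower in Kasumi-1 at 24 h, 4 at 72 h, 0 in SKNO-1 at 24 h and 1 at 72 h, with 5, 7, 3 and 1 at an unadjusted p under 0.05 by limma. Of all genes 11.2% and 12.7% were lower in Kasumi-1 at 24 and 72 h, and 3.44% and 4.16% in SKNO-1. For the mean of the sets 0 were higher and 8 lower, with 22.7% and 28.1% of all genes. With quantile normalization the counts of lower genes were 3, 4, 1 and 0 in the 4 sets and 7 in the mean. With the median of ratios they were 3, 4, 0 and 0, and 6 in the mean. CXXC1, the CpG-binding subunit of the SETD1 complexes, averaged 38.2 ± 2.45 FPKM with the inhibitors and 49.0 ± 4.61 FPKM in the controls of Kasumi-1 at 24 h (-0.35, adjusted p = 0.0123 by limma). PAXIP1, a subunit of the KMT2C and KMT2D complexes, averaged 12.6 ± 0.594 FPKM with the inhibitors and 16.7 ± 0.608 FPKM in the controls of Kasumi-1 at 72 h (-0.38, adjusted p = 0.000591). The list's median in Kasumi-1 was -0.12 at 24 h and -0.14 at 72 h, against -0.01 and -0.02 for all genes. With quantile normalization it was -0.065 and -0.13, against -0.021 and -0.031. The median of ratios gave -0.090 and -0.12, against 0.012 and 0.00071. The difference between the lines in these counts was not tested.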

How the data were processed

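RNA-seq FPKM values per gene and library were used as the authors deposited them. The submitters' processing notes name TopHat 1.4.1, Cufflinks and hg19, with no role or order, and the annotation release and use of strand are not given in the sources used here. No read counts were used, so no count test was run. The filter asked for 1 FPKM in 2 libraries or more. After adding 1, log2 values were fitted in limma 3.58.1 under R 4.3.3, using 16 group means, 16 residual degrees of freedom (3 for KDM1A) and a trend in the prior variance. P-values were 2-sided and Benjamini-Hochberg adjusted over all tested genes, at a threshold of 0.05. Blank values were left missing. Figures were drawn with matplotlib 3.10.9 and tables handled in pandas 2.3.3 and numpy 2.4.6, under Python 3.11.15. The fit was also run on simulated data with independent noise in each library and no blank values. That run did not cover KDM1A's blanks or equally numbered libraries that deviate together. The members, gene lists and tests were chosen with earlier results of these data known. List genes were named by rule as the largest changes among those called in each list and comparison, and the text gives some of them. Alternatives covered the pseudocount, filter, scaling, the samples in a fit, GSK690* as a control, the name prefix, the replicate block and each library left out.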

Additional observations from a re-analysis of the deposited data

Results flagged for a closer look

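Among 72 groups of 4 libraries (the inhibitor or the control libraries of a set, for each member with 4 values), 8 had 1 library whose gap to the nearest other was unusually large for the range of the group, and chance flags about 1 group in 20. HDAC2 had 3 of them. The first RN-1 library of Kasumi-1 at 24 h was the highest inhibitor library, at 116 FPKM, with the others at 110.1 to 111 FPKM. The second GSK690 library of SKNO-1 at 24 h was the highest at 100.2 FPKM, with the others at 90.7 to 91.7 FPKM. The second DMSO library of SKNO-1 at 72 h was the lowest control at 106 FPKM, with the others at 117 to 119 FPKM. For ZNF217 the second GSK690* library of Kasumi-1 at 72 h was the highest control at 15.2 FPKM, with the others at 13.8 to 14.05 FPKM. The first DMSO library of SKNO-1 at 72 h was the lowest control for RCOR2, at 1.99 FPKM with the others at 3.13 to 3.35 FPKM. In SKNO-1 at 24 h the first DMSO library was the lowest control for RCOR3, at 19.7 FPKM with the others at 22.7 to 23.0 FPKM. The first RN-1 library of that set was the highest inhibitor library for HMG20B, at 38.2 FPKM with the others at 23.9 to 26.1 FPKM. The first RN-1 library of Kasumi-1 at 24 h was the highest inhibitor library for ZMYM2, at 24.0 FPKM with the others at 20.7 to 21.0 FPKM.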

How the results depend on the processing

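The mean change over the 4 sets kept its direction and its call for ZNF217 and HDAC1 under every alternative run, at 0.40 and -0.11 with quantile normalization. Depth is unknown, 2 libraries a group limit single-set tests, and RCOR2 lies near the filter. Alternatives were counted for all fitted members in inhibitors minus controls, and in the other comparisons only for members already called. Calls gained in those other comparisons are therefore not in these counts. Alternatives other than leaving out a library kept the call and direction in 494 cases, lost a call in 19, gained one in 5 and reversed 12. Leaving out a library gave 728, 29, 3 and 46. Causes were not tested. With GSK690* left out of the controls, 1 member was called in Kasumi-1 at 24 h (3 as reported), 1 in SKNO-1 at 24 h and 1 at 72 h (2 each), and a fit of 1 set alone called 0 in either SKNO-1 set, where fewer libraries estimate the spread. For GSK690 minus GSK690* in Kasumi-1 at 72 h, quantile normalization and the median of ratios each called 1 member (0 as reported).

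A fit with the replicate number as a block called 1 member for RN-1 minus DMSO in Kasumi-1 at 72 h, 1 in SKNO-1 at 24 h and 1 at 72 h, and for GSK690 minus GSK690* 1, 1 and 2 (0 as reported in each). PHF21A in Kasumi-1 at 24 h was called under the block (adjusted p = 0.0473 by limma). Over all genes the block raised calls for inhibitors minus controls to 3722 in Kasumi-1 at 24 h (2479 as reported), 2303 in SKNO-1 at 24 h (1080) and 2712 at 72 h (1316). Differences between replicates 1 and 2 correlated between groups at 0.0432 to 0.697, positive in all 6 pairs of groups in each set, so equally numbered libraries deviated together to some degree. The labels do not say what a number shares, and the libraries were not treated as paired. A fit of 1 set alone called 160 genes in SKNO-1 at 24 h and 400 at 72 h, and leaving out GSK690* called 668 at 24 h. Leaving out 1 library moved the count over all genes by more than 1.5 times for the first DMSO (1501), the first GSK690* (1504), the second RN-1 (1546) and the second GSK690 library (1498) of Kasumi-1 at 24 h, and for the first DMSO library of Kasumi-1 at 72 h (2022). In SKNO-1 it did so for the first DMSO (551), the second DMSO (571), the first RN-1 (405), the second GSK690* (494) and the first GSK690 library (387) at 24 h, and for the first DMSO (860) and the first GSK690* library (871) at 72 h.

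Some small differences that had not passed changed sign. With quantile normalization RCOR2 was -0.12 and -0.060 in Kasumi-1 at 24 and 72 h, -0.043 in SKNO-1 at 72 h and -0.024 in the mean, ZMYM2 was 0.013 in Kasumi-1 at 72 h (0.00056 with the median of ratios), HDAC2 was 0.0042 in SKNO-1 at 24 h and HMG20B was 0.022 in SKNO-1 at 72 h. With GSK690* left out RCOR2 was -0.015 in Kasumi-1 at 24 h, RCOR3 was -0.023 in Kasumi-1 at 72 h, and HMG20B was -0.064 in SKNO-1 at 24 h and 0.081 at 72 h.

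Leaving out 1 library gave 1 to 3 called members in Kasumi-1 at 24 h, 0 to 2 in SKNO-1 at 24 h, 1 to 2 at 72 h, 0 to 1 for RN-1 minus DMSO in Kasumi-1 at 24 h and at 72 h, and 0 to 1 for GSK690 minus GSK690* in SKNO-1 at 72 h. In Kasumi-1 at 24 h RCOR1 ranged from -0.020 to 0.099 and RCOR2 from -0.023 to 0.073. In Kasumi-1 at 72 h RCOR2 ranged from -0.0035 to 0.19, RCOR3 from -0.058 to 0.070, PHF21A from -0.031 to 0.057, HMG20B from -0.23 to 0.0043 and ZMYM2 from -0.079 to 0.035. In SKNO-1 at 24 h RCOR3 ranged from -0.014 to 0.094, PHF21A from -0.018 to 0.024, HMG20B from -0.15 to 0.18 and ZMYM2 from -0.0082 to 0.040. In SKNO-1 at 72 h RCOR2 ranged from -0.055 to 0.20, HMG20B from -0.16 to 0.11 and ZMYM2 from -0.11 to 0.037, and the mean of ZMYM2 over the sets from -0.016 to 0.021.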

Other observations

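Of the other complexes that use HDAC1 and HDAC2 or related class I deacetylases, SIN3 and the MiDAC and MIER genes were called in both directions. Calls among the NCOR and SMRT genes were all lower. Of 14 SIN3 subunits, 2 were called higher with the inhibitors in Kasumi-1 at 24 h, and 1 higher and 1 lower at 72 h by limma, with 9.69% of all genes higher at 24 h and 13.0% higher and 12.7% lower at 72 h, so these counts differ from those shares by 1 gene or less. In the mean over the 4 sets, where 22.7% of all genes were higher and 28.1% lower, 3 SIN3 subunits were higher and 2 lower, 0 of 6 NCOR and SMRT genes were higher and 4 lower, and 2 of 6 MiDAC and MIER genes were higher and 1 lower. The lower SIN3 call in Kasumi-1 at 72 h, of SAP130, was lost by limma with quantile normalization (adjusted p = 0.0593) and with the median of ratios (adjusted p = 0.0744). With each of these 3 SIN3 subunits were higher and 0 lower in that set. In the mean over the 4 sets 5 were higher and 3 lower with quantile normalization, and 4 and 0 with the median of ratios. For the NCOR and SMRT genes that mean had 0 higher and 3 lower with either rescaling. The MiDAC and MIER genes had 1 higher and 1 lower with quantile normalization, and 2 and 1 with the median of ratios. BRMS1, a SIN3 subunit known as a metastasis suppressor, averaged 24.4 ± 1.75 FPKM with the inhibitors and 18.3 ± 1.18 FPKM in the controls of Kasumi-1 at 24 h (0.40, adjusted p = 0.0270) and was higher by 0.47 at 72 h (adjusted p = 0.00796). Of 6 NCOR and SMRT genes, NCOR1, the corepressor scaffold that binds HDAC3, averaged 21.5 ± 2.26 FPKM with the inhibitors and 26.1 ± 2.94 FPKM in the controls of Kasumi-1 at 72 h (-0.27, adjusted p = 0.0230), which was not called with quantile normalization (adjusted p = 0.0569). Of 6 MiDAC and MIER genes, TRERF1 averaged 8.88 ± 1.15 FPKM with the inhibitors and 12.9 ± 0.853 FPKM in the controls of Kasumi-1 at 72 h (-0.49, adjusted p = 0.00721), while ELMSAN1, a MiDAC scaffold, was higher by 0.34 in the same set (adjusted p = 0.0478). MIER2 was higher by 0.37 in SKNO-1 at 24 h (adjusted p = 0.0472), and was not called with quantile normalization (adjusted p = 0.0791).

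Blank values were uncommon in the deposited table and KDM1A had the most. Of 23073 genes, 30 lacked a value in some library, 102 values in all, and the gene with the next most lacked 8. KDM1A lacked 15, of which 3 were among the 8 RN-1 libraries, 3 among the GSK690, 4 among the GSK690* and 5 among the DMSO libraries. The genes with blanks had a median level of 22.7 FPKM, against 12.5 FPKM for all kept genes. The cause of the blanks was not tested.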
